A study of Mus musculus with 6 samples.

Results

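The proteins of the cytosolic ribosome were compared between 2 tissues of the mouse, the dorsal root ganglia (DRG) and the spinal cord (SC), together with how far their difference depends on the way arrays are scaled. Members were all probe sets whose platform annotation names exactly 1 gene with a symbol of the Rps or Rpl series, or Rplp0 to Rplp2 or Rpsa. Ribosomal S6 kinases were left out. The rule found 105 of the 45101 probe sets, for 49 of 18193 named genes. Of these genes, 23 encode proteins of the small subunit and 26 of the large subunit. A further 110 probe sets name a ribosomal protein together with other genes and lie outside the rule.

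The study compared DRG with SC, with 3 arrays for each tissue. Every array carried RNA of 1 pool of 4 mice, and the pools are described as independent, so the p-values measure the spread between such pools. The mice were male C57BL/6J aged 3 months, and no treatment or genotype is named for either tissue. The labels give both tissues as lumbar, L1 to L6, with both sides combined. Both are whole tissues, so fewer cells of a type and less RNA per cell cannot be told apart.

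Ribosomes are built from a small subunit, which holds the messenger RNA and reads its codons, and a large subunit, which joins amino acids and lets the growing chain out through a tunnel. Each subunit is a core of ribosomal RNA clad with proteins, made in near equal numbers and assembled in the nucleolus. Many messenger RNAs for these proteins start with a run of pyrimidines, the 5′ terminal oligopyrimidine tract, through which the kinase mTOR and the protein Larp1 set their translation. The genome also carries many processed copies of these genes, so a probe set can match more than 1 transcript.

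The start sites of 10 members are shown because they are among those the results turn on. They run from the member with the largest difference to some with almost none. Each line runs 5′ to 3′ and is read from the RefSeq promoter table of GRCm38.p6. It holds 15 bases before the annotated start and 15 from the start on. Capitals mark the pyrimidine tract, a C followed by at least 4 bases that are C or T and beginning within 10 bases of the start.
Rps27l: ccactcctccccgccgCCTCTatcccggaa
Rps27: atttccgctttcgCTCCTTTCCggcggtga
Rps18: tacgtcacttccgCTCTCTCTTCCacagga
Rps2: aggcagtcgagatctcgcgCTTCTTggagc
Rps26: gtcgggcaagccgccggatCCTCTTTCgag
Rplp0: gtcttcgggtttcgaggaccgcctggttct
Rpl35: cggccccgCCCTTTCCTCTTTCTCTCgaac
Rps10: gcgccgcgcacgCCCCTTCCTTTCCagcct
Rpl22l1: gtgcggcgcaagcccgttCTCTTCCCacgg
Rps24: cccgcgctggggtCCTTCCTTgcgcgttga

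On the plus strand lie the windows of Rps27l (chr9:66946071-66946100), Rps2 (chr17:24720048-24720077), Rplp0 (chr5:115559452-115559481), Rpl22l1 (chr3:28805493-28805522) and Rps24 (chr14:24490663-24490692). On the minus strand lie those of Rps27 (chr3:90213634-90213663), Rps18 (chr17:33955651-33955680), Rps26 (chr10:128626492-128626521), Rpl35 (chr2:39005117-39005146) and Rps10 (chr17:27635230-27635259). For Rps27l and Rps24 the table holds 2 starts and the first is shown. The window of Rplp0 is the only one of the 10 without a tract by this definition. Rps26 and Rps24 both have a tract of 8 bases, and stand among the members with a high and with a low difference in the results that follow. Rpl35, also high, has a tract of 18 bases, and Rps27l, the highest, one of 5 bases. Of members not shown, Rpl41 (log2 difference, DRG minus SC, 0.73) has no tract. Rpl27a (0.29) has the longest found within these windows, 19 bases that reach the end of its window, so the tract may run on.

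Promoter sequences were matched for 43 of the 49 genes. A pyrimidine tract at the start was found in 26 of them (60.5%), against 32.6% of 27025 genes. Within 250 bases before to 50 after the start, on either strand, the ETS core CCGGAAG was found in 21 members (48.8%, against 9.93% of all genes). The SP1 box GGGCGG was in 25 (58.1%, against 38.2%), TATAAA in 6 (14%, against 15.7%) and the YY1 motif GCCATNTTG in 1 (2.33%, against 2.90%). The tract and the ETS core can overlap where a start lies close to the core. The median log2 difference, DRG minus SC, was 0.42 over the 26 members with a tract and 0.30 over the 17 without, a description of the letters in these windows only.

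The deposited values were ratios, from which the array signals were recovered, and the authors' array scaling was kept unless another is named. In relative terms, the authors divided the DRG arrays by 0.861 to 0.912 and the SC arrays by 1.13 to 1.15, so the scaling itself raises DRG over SC for every probe set. The 18 hybridisation controls, transcripts added in equal amount to each array, had a median log2 difference of 0.39 with this scaling and 0.03 before it. The signals before it already shared a common trimmed mean, which leaves out the extremes, of 247.1 to 247.3 on every array. Their median was 82.6 to 87.5 in DRG and 108 to 110 in SC. Signals before the scaling are therefore those before the authors' factor, not unscaled ones. Tissue identity was clear from defining markers: the summed signal of 5 sensory neuron markers was 24836 to 25995 in DRG and 467 to 631 in SC, and that of 4 spinal neuron markers was 163 to 198 in DRG and 8767 to 9154 in SC. Sums of 3 Schwann and satellite cell markers were 20901 to 21865 in DRG and 3652 to 4423 in SC. Those of 4 astrocyte markers were 838 to 872 and 17966 to 20288, of 3 oligodendrocyte markers 142 to 203 and 5880 to 6444, and of 4 fibroblast markers 11052 to 12204 and 1277 to 1514. Skeletal muscle markers spanned 360 to 1320 in DRG and 357 to 1541 in SC, and 2 red cell markers 80.5 to 163 and 30.5 to 47.2. The ratio of 3′ to 5′ probe sets of the control transcripts, a measure of RNA quality, was 0.816 to 0.832 in DRG and 0.678 to 0.702 in SC for Gapdh, and 1.52 to 1.73 and 1.20 to 1.43 for b-Actin. The part of cell makeup and of RNA quality in the results on ribosomal proteins was not tested.

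With the deposited scaling, messenger RNAs of ribosomal proteins stood on the DRG side as a group, led by Rps27l, Rps18, Rplp0, Rps2 and Rps26. Before the scaling and after quantile normalization the group's median lay near 0, and the same leading genes were still called higher in DRG. Each gene was represented by its brightest probe set, and a call means an adjusted p under 0.05 in limma over all 45029 probe sets tested. With the deposited scaling 29 of the 49 genes were called higher in DRG and 0 higher in SC, where the shares over all 18192 genes were 31.8% and 9.7%. At an unadjusted p under 0.05, limma put 1 member higher in SC, Rpl39l, which is among the dim members described further on. Of the 49 differences 46 were above 0. The median log2 difference was 0.41 over the members, with quartiles of 0.23 and 0.63 and a range of -0.70 (the dim Rpl39l) to 1.42, and 0.18 over all genes. Members were bright, 35 of the 49 lying in the brightest 10% of genes by signal, and those brightest genes had a median of 0.59 themselves. The groups of arrays did not overlap for 32 members with DRG higher and for 1, Rpl39l, with SC higher, where 37.9% and 13.8% of all genes showed this.

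Before the authors' scaling, 14 members were called higher in DRG and 5 higher in SC, Rpl39l among them, against 19.3% and 19.7% of all genes. The median over members was then 0.04, and over all genes -0.10. After quantile normalization 8 were called higher in DRG and 10 higher in SC, against 20.5% and 16%, with medians of -0.04 and 0.04. Scaled on the hybridisation controls, 1 member was higher in DRG (Rps27l, log2 difference 1.01, adjusted p = 8.41e-04) and 1 was called higher in SC (Rpl39l), at 2.66 to 33.1 on the arrays and so under a level for genes not expected of 115 to 151, described with the dim members. The shares of all genes were 10.6% and 12.9% there, and the medians 0.00103 and -0.13. The factor of the controls was 0.766 on SC 2 and 0.986 to 1.13 on the other 5 arrays, so SC 2 stands apart in this setting. Standard errors of bright members were larger with it, at similar differences. Rps18 had 0.61 (SE 0.08) before the scaling and 0.57 (SE 0.21) with the controls, and Rplp0 had 0.57 (SE 0.07) and 0.54 (SE 0.21). The fewer calls are thus not read as smaller differences.

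Across the deposited scaling, the signals before it and quantile normalization, 8 members kept a call higher in DRG: Rps27l, Rps18, Rplp0, Rps2, Rps26, Rpl10a, Rps4l and Rpl41. No member kept a call higher in SC. How many of all genes kept such a call was not counted. After quantile normalization alone, 20.5% of all genes were called higher in DRG. All 14 calls before the scaling were among the 29 of the deposited scaling. That scaling raises DRG over SC for every probe set, so this overlap is no separate evidence. Rps28, Rps14, Rpl4 and Rps3, called higher in DRG with the deposited scaling, were called higher in SC after quantile normalization. For these 4 genes the direction of the call changed with the scaling.

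**Figure D1:**
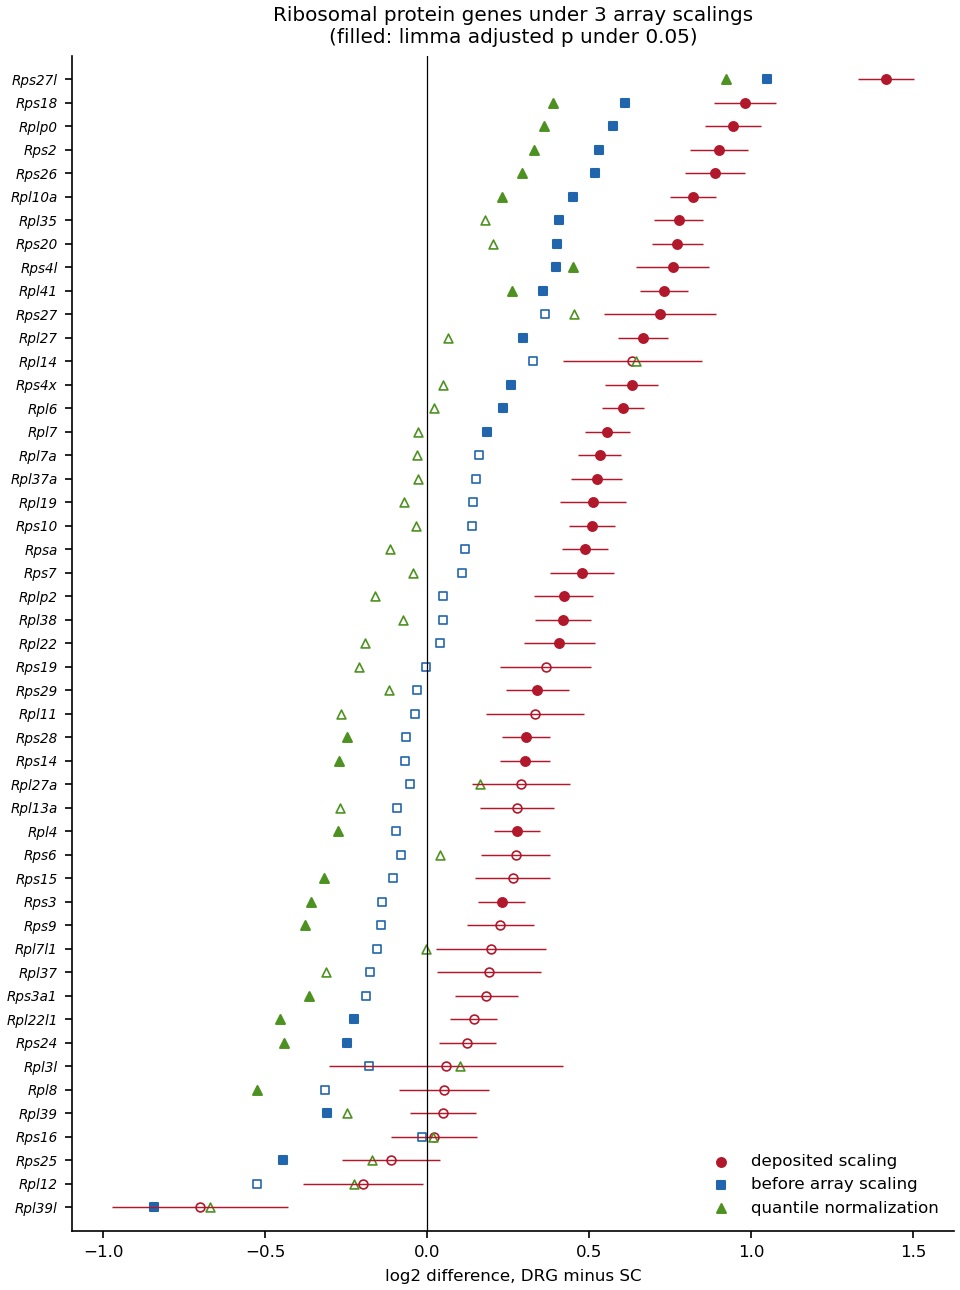
Log2 difference, DRG minus SC, of the 49 ribosomal protein genes (rows) under 3 array scalings, with filled symbols for an adjusted p under 0.05 in limma and bars for the standard error with the deposited scaling. The points move left as a group, from a median of 0.41 with the deposited scaling to 0.04 before it and -0.04 after quantile normalization.

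The arrays of a tissue were not alike in these genes. Over the members, the median deviation of an array from each gene's mean was 0.26 on DRG 1, 0.10 on DRG 2 and 0.31 on DRG 3. On SC 1, SC 2 and SC 3 it was -0.15, -0.30 and -0.24. DRG 2 was thus the lowest ganglion array for the family and SC 2 the lowest cord array. DRG 2 was the lowest of its tissue for 30 of the 49 members (61.2%, against 42.0% of all genes), and DRG 3 the highest for 33 (67.3%, against 35.0%). SC 2 was the lowest of its tissue for 36 members (73.5%, against 33.9%) and SC 1 the highest for 25 (51.0%, against 37.3%). Before the scaling the same medians were 0.05, -0.02 and 0.10 on the DRG arrays and 0.01, -0.11 and -0.04 on the SC arrays, and the tissues overlapped.

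**Figure D2:**
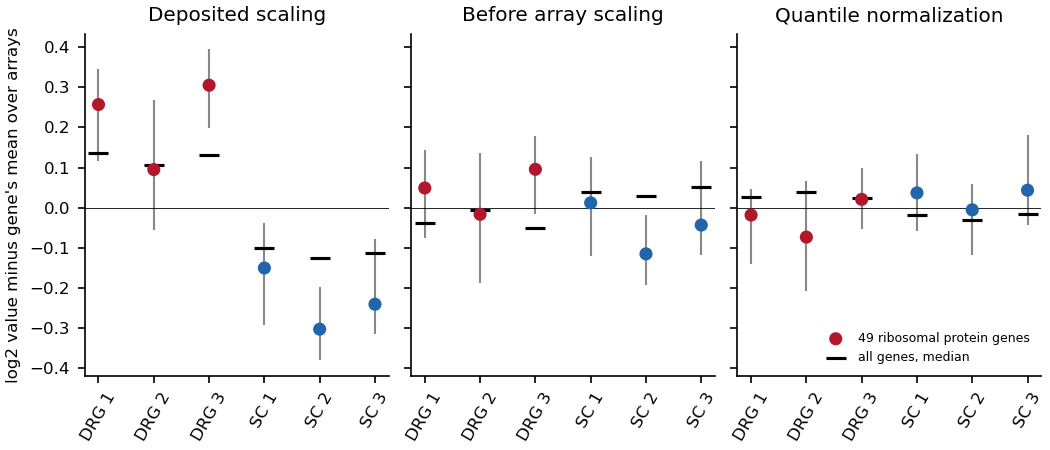
Median over the 49 ribosomal protein genes of the log2 value minus the gene's mean over 6 arrays (points, with bars from the lower to the upper quartile) and the same median over all genes (dashes), for each array and scaling. The DRG points sit at 0.10 to 0.31 and the SC points at -0.30 to -0.15 with the deposited scaling, and the tissues overlap under both other scalings.

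Proteins of the small subunit were called higher in DRG in 15 of 23 genes with the deposited scaling (median 0.37). The share was 31.8% over all genes, and 1340 of the 1820 brightest genes were called so. Before the scaling 7 were higher in DRG and 2 higher in SC (median -0.0040), against 19.3% and 19.7% of all genes. After quantile normalization the counts were 5 and 7 (median -0.04), against 20.5% and 16%. Rps27l, a close relative of the zinc-finger protein Rps27 that p53 can induce, had the largest difference of all members. Its signal was 1571, 1624 and 1759 on the DRG arrays and 558, 601 and 672 on the SC arrays. Every ganglion array lay far above every cord array. The means were 1651 ± 96.9 and 610.2 ± 57.5 (SD, n = 3), a 2.71-fold ratio, with a log2 difference of 1.42 (SE 0.09, adjusted p = 2.03e-06). It was 1.05 before the scaling and 0.92 after quantile normalization, called in both.

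Rps18, which sits in the head of the small subunit, read 4552, 4051 and 4779 in DRG and 2526, 2086 and 2155 in SC. Arrays of one tissue lay well apart from those of the other, with DRG 2 lowest of the ganglia. The log2 difference was 0.98 (SE 0.10, adjusted p = 4.08e-05), and 0.61 and 0.39 under the other scalings. Rps2, Rps3 and Rps9 line the channel through which messenger RNA enters, and they did not move alike. Rps2 read 5341, 5530 and 5750 in DRG and 3145, 3146 and 2617 in SC, a log2 difference of 0.90 (SE 0.09, adjusted p = 4.20e-05). Rps3 read 3731, 3698 and 3966 against 3416, 3055 and 3246, a difference of 0.23 (SE 0.07, adjusted p = 0.0377). For both genes the ganglion arrays were above all cord arrays, for Rps3 by a small step. Rps9 had a difference of 0.23 as well, with overlapping arrays (adjusted p = 0.143).

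Rps26, which lines the exit of the messenger RNA channel, read 4154, 3683 and 3416 in DRG and 2187, 1956 and 1905 in SC. DRG 3 was its lowest ganglion array, unlike most members. Its log2 difference was 0.89 (SE 0.09, adjusted p = 5.60e-05), and it was 0.52 before the scaling and 0.29 after quantile normalization. Rps20, of the subunit's head, had means of 5441 ± 340 and 3178 ± 181 and a difference of 0.77 (adjusted p = 5.51e-05), which was 0.20 after quantile normalization and no longer called (adjusted p = 0.063). Rps10, also of the head, had means of 6481 ± 124 and 4553 ± 211 and a difference of 0.51 (adjusted p = 4.07e-04), which was 0.14 before the scaling and -0.03 after quantile normalization, without a call in either.

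The other called proteins of the small subunit lay between 0.30 and 0.76 with the deposited scaling. They were Rps4l (0.76), Rps27 (0.72), Rps4x (0.63), Rpsa (0.49), Rps7 (0.48), Rps29 (0.34), Rps28 (0.30) and Rps14 (0.30). Rpsa is also known as a receptor for laminin. Rps28 and Rps14 were -0.25 and -0.27 after quantile normalization (adjusted p = 0.00722 and 0.0216), called the other way.

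Rps24, which like Rps19 is mutated in Diamond-Blackfan anemia, showed no call with the deposited scaling. It read 4848, 4225 and 4755 in DRG and 4348, 3861 and 4479 in SC, so the tissues overlapped. The log2 difference was 0.12 (SE 0.09, adjusted p = 0.348), against -0.25 before the scaling (adjusted p = 0.0356) and -0.44 after quantile normalization (adjusted p = 7.37e-04). Rps19 overlapped too (0.37, adjusted p = 0.0825). Rps3a1 was 0.18, -0.19 and -0.36 under the 3 scalings in this order, and called only in the last (adjusted p = 0.0036). Rps6, the substrate of the S6 kinases, had 0.27 (adjusted p = 0.0837) and Rps15 had 0.26 (adjusted p = 0.125).

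**Figure D3:**
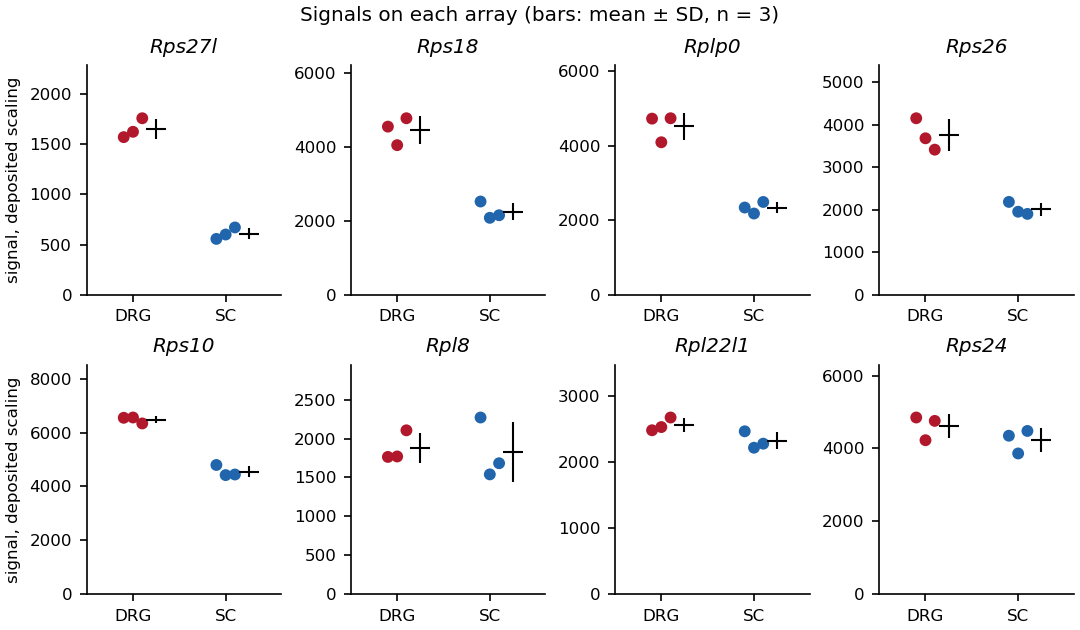
Signals of 8 ribosomal protein genes on each of the 3 DRG and 3 SC arrays, deposited scaling, with crosses for mean ± SD and axes from 0. In Rps27l, Rps18, Rplp0, Rps26 and Rps10 the tissues are well apart, whereas in Rpl8 and Rps24 they overlap and in Rpl22l1 they lie next to each other, between 2217 and 2675.

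Of the large subunit, 14 of 26 genes were called higher in DRG with the deposited scaling (median 0.41), against 31.8% of all genes. Before the scaling 7 were higher in DRG and 3 in SC (median 0.04), against 19.3% and 19.7% of all genes. After quantile normalization the counts were 3 and 3 (median -0.05), against 20.5% and 16%. Rpl10a, which forms the mobile stalk beside the exit site of transfer RNA, read 3975, 4322 and 4230 in DRG and 2482, 2301 and 2291 in SC. Without overlap between tissues, its spread within each was small. Its log2 difference was 0.82 (SE 0.07, adjusted p = 1.77e-05), and 0.45 and 0.23 under the other scalings, called in all 3.

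Rpl41, a very short basic protein, read 9586, 9264 and 9773 in DRG and 6019, 5526 and 5696 in SC, again without overlap. Its difference was 0.73 (SE 0.07, adjusted p = 5.16e-05), then 0.36 before the scaling and 0.26 after quantile normalization. Rpl35, a protein at the mouth of the exit tunnel, had means of 3637 ± 201 and 2117 ± 116 and a difference of 0.78 (adjusted p = 3.74e-05), and the 0.18 left after quantile normalization missed the threshold (adjusted p = 0.0509). Rpl39, which lies within the tunnel, read 421, 408 and 397 in DRG and 404, 346 and 439 in SC. Its tissues overlapped, with SC 3 the highest array of all. The log2 difference was 0.05 (SE 0.10, adjusted p = 0.788), and -0.31 before the scaling (adjusted p = 0.0465).

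Rpl8, close to the site where peptide bonds form, read 1765, 1770 and 2107 in DRG and 2271, 1540 and 1683 in SC. SC 1 held the highest value and SC 2 the lowest, so the spread within cord was larger than the step between tissues. Its difference was 0.05 (SE 0.14, adjusted p = 0.833), and -0.53 after quantile normalization (adjusted p = 0.0113). The other called members of the large subunit were Rpl27 (0.67), Rpl6 (0.60), Rpl7 (0.56), Rpl7a (0.53), Rpl37a (0.52), Rpl19 (0.51), Rpl38 (0.42), Rpl22 (0.41) and Rpl4 (0.28). Rpl38 is known for its part in translation of Hox messenger RNAs. Rpl27, Rpl6 and Rpl7 were also called before the scaling, and none of these 9 was called higher in DRG after quantile normalization.

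Also above 0 and not called were Rpl14 (0.63), Rpl11 (0.33), Rpl27a (0.29), Rpl13a (0.28), Rpl7l1 (0.20) and Rpl37 (0.19). Rpl22l1 and the dim Rpl3l, likewise above 0 and not called, are described with the paralogues. Rpl11, which binds the p53 regulator Mdm2, read 3141, 2040 and 3013 in DRG and 2172, 1962 and 2262 in SC. DRG 2 fell within the cord range while the other ganglion arrays lay above it. Rpl14 was dim in this probe set, with means of 98.5 ± 15.3 and 57.6 ± 6.02 and an adjusted p of 0.0505.

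The stalk that recruits elongation factors is formed by Rplp0 with Rplp1 and Rplp2 on a base that includes Rpl12. Rplp0 read 4727, 4094 and 4738 in DRG and 2343, 2183 and 2493 in SC, and Rplp2 read 5029, 4271 and 5034 against 3540, 3319 and 3821. Both genes were lower on DRG 2 than on the other ganglion arrays and lowest on SC 2. Rplp0 had a log2 difference of 0.94 (SE 0.09, adjusted p = 2.44e-05) and was called under all 3 scalings. Rplp2 had 0.42 (SE 0.09, adjusted p = 0.00571), then 0.05 before the scaling and -0.16 after quantile normalization, without a call in either. Within each array the log2 ratio of Rplp0 to Rplp2, from which array scaling cancels up to the pseudocount, was 0.52 higher in DRG, with no overlap between tissues. Rpl12 was dim, with means of 106 ± 13.6 and 125 ± 19.5 and a difference of -0.20 (adjusted p = 0.493). Rplp1 has no probe set of its own under the rule.

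Several members are paralogues that can stand in for another ribosomal protein, or retained gene copies. The ratio within an array was compared for 6 pairs, the stalk pair included, by an exact two-sided permutation test over the arrays, which with 3 against 3 cannot go below p = 0.1. The log2 ratio of Rps27l to Rps27 was 0.70 higher in DRG, without overlap between tissues (exact p = 0.1), as was that of the stalk pair (exact p = 0.1). That of Rpl22l1 to Rpl22 differed by -0.27 (exact p = 0.2), of Rpl7l1 to Rpl7 by -0.36 (exact p = 0.2) and of Rps4l to Rps4x by 0.13 (exact p = 0.6). These 3 ratios overlapped between tissues. The sixth pair, Rpl39l to Rpl39, is left out because Rpl39l was dim on all arrays. After Benjamini-Hochberg adjustment over the 6 pairs the lowest p was 0.2, and with 3 against 3 arrays this permutation test can call no pair whatever the size of the shift.

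Rpl22l1 is a close copy of Rpl22 and known to be raised when that protein is missing. It read 2482, 2530 and 2675 in DRG and 2466, 2217 and 2279 in SC, and SC 1 nearly reached the lowest ganglion array. The log2 difference was 0.14 (SE 0.07, adjusted p = 0.174), then -0.23 before the scaling (adjusted p = 0.027) and -0.45 after quantile normalization (adjusted p = 4.53e-04). Rpl22 itself read 2755, 2247 and 3037 against 2063, 1867 and 2077, with all ganglion arrays above the cord. Rps27, the partner of Rps27l, read 404, 441 and 543 in DRG and 345, 211 and 279 in SC (adjusted p = 0.0104), a spread that was wide for its mean. Rps4l read 538, 537 and 580 against 278, 372 and 316, and was called under all 3 scalings.

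Paralogues with tissue-restricted use were dim. Rpl39l, known from testis, read 2.66, 3.40 and 9.87 in DRG and 33.1, 9.91 and 15.6 in SC. Rpl3l, known from skeletal muscle and heart, read 42.3, 12.8 and 37.5 against 29.7, 13.7 and 42.9. They lay under a level set by genes that neither tissue should express, namely the 95th percentile of 140 probe sets of olfactory and vomeronasal receptors, defensins and keratin-associated proteins and came to 115 to 151 on the 6 arrays. The probe set of Rps16 under the rule was also below this level, with 1.23 to 2.08 over the arrays, so no direction is read from the differences of these 3 genes, and the call of Rpl39l in SC before the scaling and with the hybridisation controls is no measured difference. For the other 46 genes, above that level on at least 1 array, the median difference was 0.42 with the deposited scaling, 0.05 before it and -0.06 after quantile normalization.

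Where a gene had several probe sets, they mostly gave one answer. Of 24 such genes, 20 had at least 2 probe sets above the level of genes not expected, and in 13 of these the log2 differences spanned less than 0.2 (median span 0.14). No gene had probe sets called in opposite directions with the deposited scaling or before it, and 1 gene, Rps3, did after quantile normalization. The 3 probe sets of Rps27l gave 1.42, 1.62 and 1.73, the 3 of Rps18 above the level 0.81 to 0.98, and the 5 of Rpl35 0.69 to 0.80. The 4 of Rps24 lay between 0.00 and 0.12. Probe sets of 1 gene share its sequence and are not independent measurements of the tissues.

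Wider spans were found in Rpl13a, Rps10, Rps3, Rpl37a and Rps20. Rpl13a, which is also a silencer of translation under interferon, had 0.28 in its brightest probe set (adjusted p = 0.0979) and 0.33, 0.81 and 0.95 in the others, all 3 called. The call for this gene thus rests on which probe set stands for it. Rps3 had 0.23 and 0.71, both called. After quantile normalization these were -0.36 (adjusted p = 0.00109) and 0.46 (adjusted p = 0.00592), called in opposite directions. Rps10 had -0.05 (adjusted p = 0.858) in its dimmest probe set above the level and 0.31 to 0.51 in the other 4.

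**Figure D4:**
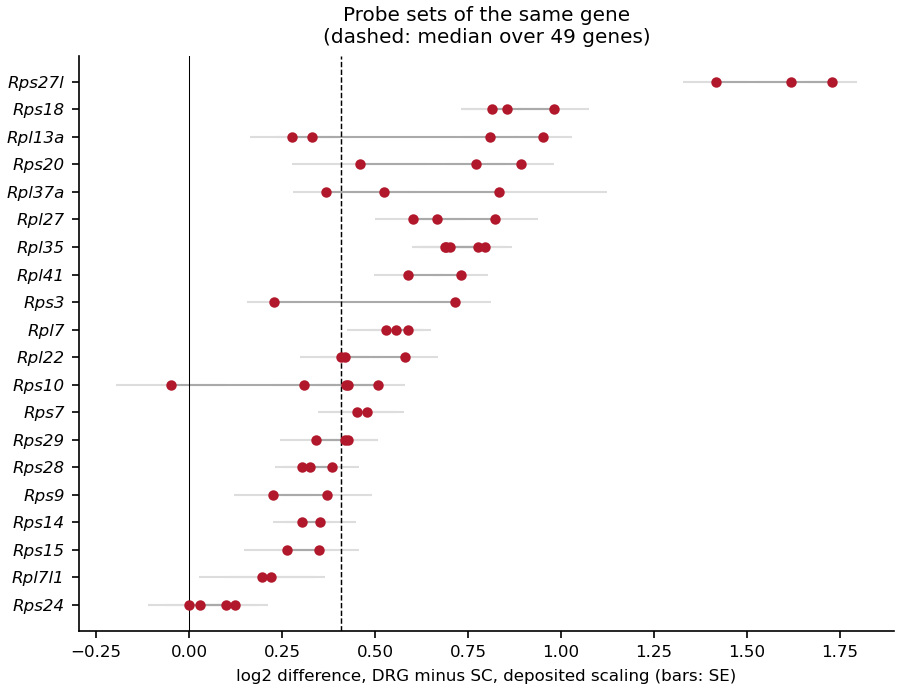
Log2 difference, DRG minus SC with the deposited scaling, of each probe set (points, pale bars for the standard error) of the 20 ribosomal protein genes with at least 2 probe sets above the level of genes not expected; the dashed line is the median over 49 genes, 0.41. Points of a gene mostly lie close together, with the widest spans in Rpl13a (0.28 to 0.95) and Rps10 (-0.05 to 0.51), and all points of Rps24 lie left of the line.

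Over all 105 member probe sets, 62 were called higher in DRG and 0 higher in SC with the deposited scaling, against 22.7% and 9.79% of all probe sets. Probe sets for 1 transcript alone (names ending in _at with no further letter) were called in 8 of 34 cases, with a median of 0.24. Of these 34, 16 did not exceed the level of genes not expected, with 0 calls and a median of 0.0076, and the other 18 had 8 calls and a median of 0.44. Those that can match several transcripts (_a_at) were called in 23 of 28, with a median of 0.45. Those that can cross-match (_x_at) were called in 29 of 40, with a median of 0.44. In these types 1 and 3 probe sets were not above the level. Of the 110 probe sets that name a ribosomal protein with other genes, 65 were called higher in DRG and 1 higher in SC, with a median of 0.39. That median was 0.04 before the scaling and -0.10 after quantile normalization, near those of the members. Signals of a ribosomal protein and of its transcribed copies cannot be told apart in such probe sets.

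Because a factor common to an array moves all members alike, each member was also set against the family. Here the centre of an array was the median over members of the deviation from each gene's own mean, a choice made after the data were seen. About as many members must lie above as below such a centre by construction. Relative to it 10 members were called higher in DRG and 9 lower, against 15.8% and 26.3% of all genes (15.8% and 23.4% before the scaling, 22% and 14.2% after quantile normalization). The higher ones were Rps27l, Rps18, Rplp0, Rps2, Rps26, Rpl10a, Rpl35, Rps20, Rpl41 and Rpl27, and the lower ones Rpl39l, Rpl12, Rps25, Rpl39, Rpl8, Rps24, Rpl22l1, Rps3a1 and Rps3. Of these, 9 higher (all but Rpl27) and 5 lower (Rps24, Rpl22l1, Rps3a1, Rps3 and Rpl8) were called under all 3 scalings. The share of all genes called so under all 3 was not counted. For Rps3 this rests on the probe set that stands for it: the other above the level lay at 0.26, 0.27 and 0.51 above the family, called in the last (adjusted p = 0.00422). Rpl39l was under the level of genes not expected. The 9 lower calls were 3 without DRG 1, 5 without DRG 3 and 3 without SC 3.

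Above the family, the largest departures were those of Rps27l at 0.96 (SE 0.11, adjusted p = 2.86e-05), Rps18 at 0.53 (SE 0.08, adjusted p = 2.54e-04) and Rplp0 at 0.49 (SE 0.08, adjusted p = 5.45e-04). Among the 5 lower under all 3 scalings, Rps24 had -0.33 (SE 0.08, adjusted p = 0.00794), Rpl22l1 had -0.31 (SE 0.08, adjusted p = 0.0108) and Rpl8 had -0.40 (SE 0.11, adjusted p = 0.0159). All 4 bright probe sets of Rps24 were called below the family, from -0.45 to -0.33, and all 3 of Rps27l above it. The lowest values came from dim members: Rpl39l, under the level of genes not expected, Rpl12 at -0.65 (adjusted p = 0.0332) and Rps25 at -0.56 (adjusted p = 0.0261). Rps25, a protein that some viral internal ribosome entry sites need, had signals of 131 ± 10.1 and 142 ± 11.2.

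A centre at the median level of the 49 genes, chosen earlier, gave another balance: Rps27l, Rps18 and Rplp0 were called higher in DRG and 31 members lower, against 10.5% and 52.2% of all genes. The level at the median moved by 0.72 between tissues, more than the median difference of 0.41. The gene at the median was not the same on each array, namely Rpl35, Rps26 and Rps3 on the DRG arrays and Rpl22l1 on all SC arrays.

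Genes that act with the ribosome were described from lists by the same fit. Over all genes, the shares called higher in DRG and in SC were 31.8% and 9.7% with the deposited scaling. They were 19.3% and 19.7% before it, and 20.5% and 16% after quantile normalization. With the deposited scaling, 4885 of 9096 genes above the median signal and 1340 of the brightest 1820 were called higher in DRG. Among 75 mitochondrial ribosomal proteins, built into the separate ribosome of that organelle, 50 were called higher in DRG and 0 higher in SC with the deposited scaling (median 0.48). Before the scaling the counts were 23 and 2 (median 0.11), and after quantile normalization 19 and 1 (median 0.11). Mrpl35 led with signals of 1050 ± 27.0 in DRG and 429 ± 12.8 in SC (log2 difference 1.26, adjusted p = 1.15e-06), before Mrps6 (1.19) and Mrpl17 (1.14). Initiation factors, which bring the subunits and the messenger RNA together, were called higher in DRG in 26 of 31 (median 0.57, then 0.21 and 0.09 under the other scalings), led by Eif3l (1.23), Eif4a1 (1.10) and Eif1b (0.99). After quantile normalization 9 of them were higher in DRG and 6 higher in SC. Of 9 genes listed as elongation factors 6 were called (median 0.52, then 0.14 and 0.02), with Eif5a2 at 1.77 and Eif5a at 0.84. Eef1e1, listed with them, was at 1.11 and is not itself such a factor.

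Genes of ribosome biogenesis went both ways (median 0.31, then -0.04 and 0.03). With the deposited scaling, 18 of 38 were higher in DRG and 2 higher in SC, against 31.8% and 9.7% of all genes. Nop10 and Nhp2, which belong to the particles that modify ribosomal RNA, had 1.15 and 1.13, and Pes1 had 1.08. Polr1a, the largest subunit of RNA polymerase I, was at 119 ± 12 in DRG and 195 ± 19.8 in SC (-0.64, adjusted p = 0.00858), and Rrs1 was at -0.54 (adjusted p = 0.00863). Both stayed called higher in SC under the other scalings. Other genes of the ribosome and of nascent chains were called in 7 of 8 (median 0.56, then 0.19 and 0.11), with Srp14 and Srp9 of the signal recognition particle at 1.09 and 0.67 and Btf3 at 1.01. In TOR signalling 8 of 13 were called higher in DRG and 0 higher in SC (median 0.35, then -0.01 and -0.01). Before the scaling 5 were higher in DRG and 5 higher in SC, against 19.3% and 19.7% of all genes. After quantile normalization the counts were 3 and 5, against 20.5% and 16%. Larp1, which binds pyrimidine tracts, had 0.99 (adjusted p = 4.48e-06), the repressor of initiation Eif4ebp1 had 1.14 and the kinase Pdpk1 had 0.97.

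Proteasome subunits, which take proteins apart, had the largest median of these lists, 0.92. Of 47, 40 were called higher in DRG and 0 higher in SC, against 31.8% and 9.7% of all genes. Of these 40, 35 were also called higher in DRG before the scaling and 34 after quantile normalization (medians 0.55 and 0.44, with 2 higher in SC in each). Psmb8, Psme4 and Psmd14 led with 1.95, 1.62 and 1.31. Of 9 conventional reference genes, 7 were called higher in DRG (median 0.57, then 0.23 and 0.10), among them Ywhaz (0.97), B2m (0.89) and Hprt (0.89).

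**Figure D5:**
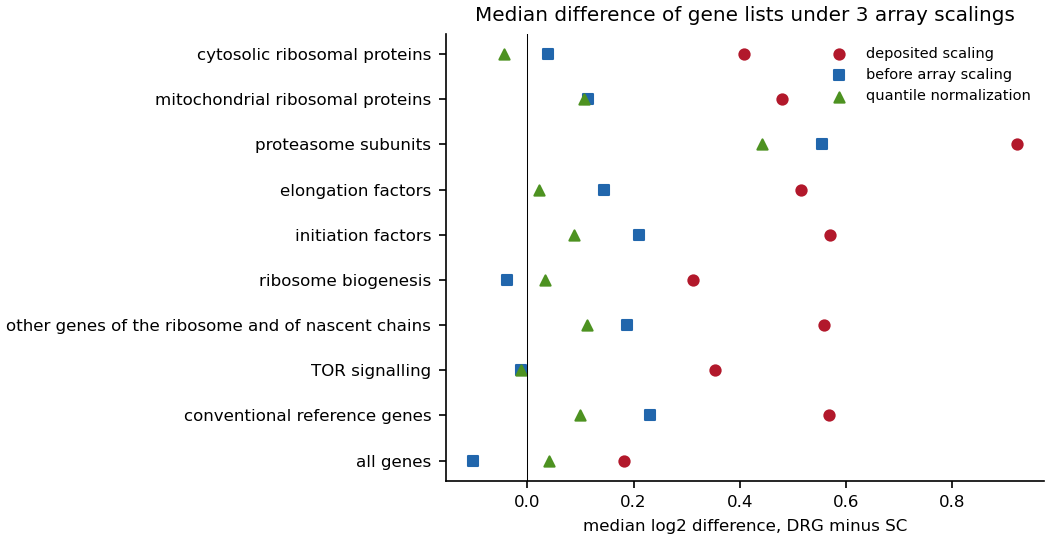
Median log2 difference, DRG minus SC, of ribosomal proteins, 8 other gene lists and all genes under 3 array scalings. The median of the cytosolic ribosomal proteins, 0.41, 0.04 and -0.04, lies near those of several lists. Among these are mitochondrial ribosomal proteins, ribosome biogenesis and TOR signalling. The proteasome subunits stay at 0.44 or above under each scaling.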

How the data were processed

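Expression was measured on 6 arrays of 3′ expression probe sets. The submitters' processing notes name MAS5, and the sources used here give no version or settings of it. The deposited values were ratios, and the values themselves show what the authors divided each signal by: a factor per array, then the median of the probe set (equal to 1 over the arrays in 91.8% of probe sets). The tests had been planned for signals, so signals were recovered as the smallest multiples on the 0.1 steps MAS5 writes, for 45091 of 45101 probe sets and all 105 members. Of probe sets simulated on the same steps from the recovered signals, 98.2% came out exactly. Each simulated probe set was divided by its median, whereas 8.21% of the deposited ones had a median under 1. The simulation takes the steps and array factors as given and does not test them.

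Log2(signal + 16) was fitted with limma 3.58.1 in R 4.3.3 (lmFit, eBayes with an intensity trend). Tests were two-sided, p-values were adjusted by Benjamini-Hochberg over 45029 probe sets, and the threshold was 0.05. The pseudocount of 16 makes differences of dim genes smaller. Array number limits the precision. Recovery ran in numba 0.67.0, tables in pandas 2.3.3 and numpy 2.4.6, and plots in matplotlib 3.10.9, all under Python 3.11.15. Probe sets were named by the platform annotation: 34945 name 1 gene, 932 several and 9160 none, beside 64 controls. Settings varied were array scaling, pseudocount, filter, gene summary, probe set type, trend, replicate block and leaving out each array.

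Members and lists were chosen with earlier results of these data known. Named were the 10 largest calls in each direction, calls under all scalings, the largest departures from the family, paralogues and stalk proteins, and up to 3 genes for each list with up to 2 of the opposite direction. Rpl14, Rpl11, Rps10, Rpl13a and other members were added so that each is accounted for. Of 281 list entries 260 were measured.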

Additional observations from a re-analysis of the deposited data

How the results depend on the processing

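The counts changed most with array scaling: higher in DRG were 29 members with the deposited scaling, 14 before it, 8 after quantile normalization and 1 with hybridisation controls, and higher in SC 0, 5, 10 and 1. The medians were 0.41, 0.038, -0.044 and 0.00103. With hybridisation controls the standard errors of bright members were larger, so the fewer calls there are not read as smaller differences than before the scaling. Without probe sets that can match several transcripts, 26 genes were left, with 8 calls higher in DRG and a median of 0.27. Leaving out 1 array gave 0 to 1 calls higher in SC. Relative to the members' median difference, calls higher and lower were 3 and 3 on the logarithm of the ratio, 4 and 1 without multi-transcript probe sets, and 4 and 4 without a trend; the lower calls were 3 to 10 with 1 array left out. Relative to the median level, they were 5 and 16 with the mean of probe sets, 1 and 1 without multi-transcript probe sets, 1 and 19 without a trend, and the lower calls were 19 after quantile normalization and 3 on the logarithm of the ratio. Apart from the first counts by array scaling, no share over all genes is given for these settings. The counts without a share are not read as results about the members. The cause of the changes was not tested.

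Deviations of same-numbered arrays had correlations of -0.01, -0.02 and 0.00, and those of arrays with different numbers lay between -0.01 and 0.02. Both kinds of pair gave such small values, so they do not decide whether the numbers pair samples. Among the members, DRG 2 and SC 2 were each most often the lowest of their tissue, whereas DRG 3 and SC 1 were most often the highest. With the replicate number as a block, 32 members were called higher in DRG, with a median of 0.41. Relative to the family it gave 10 higher and 10 lower, and from the median level 3 and 30. Shares over all genes are not given for the block, and no result about the members is read from these counts.

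Against the deposited scaling, the sign of 21 of the 49 members turned before the scaling, of 27 after quantile normalization and of 21 with hybridisation controls. Among the genes named by rule, with values in this order, it turned for Rpl22l1 (-0.23, -0.45, -0.26), Rpl37 (-0.18, -0.31, -0.21), Rpl39 (-0.31, -0.25, -0.35), Rpl7l1 (-0.15, -0.0040, -0.19), Rpl8 (-0.32, -0.53, -0.35), Rps24 (-0.25, -0.44, -0.28), Rps3 (-0.14, -0.36, -0.18) and Rps3a1 (-0.19, -0.36, -0.23). Rplp2 turned after quantile normalization (-0.16), Rps16 before the scaling and with controls (-0.016 and -0.018) and Rpl3l likewise (-0.18 in both), the last 2 under the level of genes not expected, so that their signs carry no direction. With 1 array left out, Rpl39 ranged from -0.042 to 0.12 and turned without SC 2, Rpl8 ranged from -0.061 to 0.22 and turned without DRG 3 or SC 2, and the dim Rpl3l ranged from -0.21 to 0.37. With 3 arrays a tissue, small differences and dim members such as Rpl12, Rpl14 and Rps25 are the least certain.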
